A study of Mus musculus with 8 samples.

Results

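The 44 genes described here run the cell division cycle: they license and copy DNA, form the cyclin-dependent kinases and their inhibitors, and build the mitotic spindle. They were taken by name from a list, and a probe set was assigned to a gene where the platform annotation gave it that gene alone. Of the 44 genes, 43 had such a probe set, 103 probe sets in all out of 45101 on the array, and Ccnb1 had none. Of these 43 genes, 40 had at least 1 of 71 probe sets that passed the filter on dim values and entered the tests. Cdc6, Tyms and Ect2 did not. RNA came from ankle joints of 5-month-old mice, hybridised to 8 single-colour Affymetrix arrays, each label naming 1 mouse. In 3 arrays the mice carried a human TNF transgene (hTNFa in the labels) and were labelled functionally null for sphingosine kinase 1 (hereafter the arrays labelled null). In 3 arrays they carried the same transgene with normal sphingosine kinase 1 (hTNF), and 2 arrays were wild type for both. The transgene's promoter, the strain and the litters are not given in the sources used here, so p-values here reflect the spread among arrays, part of which may be technical.

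Cells enter the cycle when D-type cyclins with their kinase partners, and then cyclin E, inactivate the retinoblastoma protein and release E2F factors. E2F factors switch on genes for origin licensing, nucleotide supply and DNA copying. Cyclin A, cyclin B and Cdk1 then drive mitosis, whose genes peak late in the cycle. In an adult joint, most stromal cells are at rest, while red marrow in the neighbouring bone holds dividing myeloid, erythroid and B cell precursors. In inflammatory arthritis the synovial lining thickens through both infiltrating cells and resident fibroblasts.

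The arrays of a group differed in ways their labels do not give. Sphk1, the targeted gene, read 10.22, 9.94 and 10.00 log2 on the arrays labelled null, with 8.63, 8.65 and 8.28 for hTNF and 7.25 and 7.16 for wild type. Its level was thus highest where the labels call it null, and the sources used here do not place the probe set against the mutation. A second Sphk1 probe set, below the filter, read 6.12 to 6.74 on all 8 arrays. Replicate 1 of the arrays labelled null, hTNF replicate 1 and wild-type replicate 2 held both Xist (11.19 to 13.09) and Y-linked Eif2s3y (6.60 to 9.14). Wild-type replicate 1 (Xist 7.45, Eif2s3y 8.86) and hTNF replicate 2 (7.29 and 8.75) had lower Xist. Replicates 2 and 3 of the arrays labelled null and hTNF replicate 3 had Xist at 12.89 to 13.16 and Eif2s3y at 3.46 to 3.81. The 2 wild-type arrays thus differed in sex-linked signal, whose part in the cell cycle differences was not tested. Markers of the labelled tissue were present: 14 fibroblast genes averaged 12.17 to 12.23 log2 on the arrays labelled null and 12.14 to 12.21 in hTNF, against 11.71 and 11.81 in wild type. Of these fibroblast genes, 8 were called higher in hTNF (57.1%, against 16.5% of all genes) and 2 lower (14.3%, against 19.6%). The 14 skeletal muscle genes averaged 12.64 to 13.12 on the arrays labelled null and 12.92 to 13.25 in hTNF, against 14.19 and 14.16 in wild type. Of these muscle genes, 13 were called lower in hTNF (92.9%, against 19.6% of all genes). Bulk RNA cannot tell fewer cells of a type from less RNA per cell.

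Cell cycle genes were higher in hTNF joints than in wild type, the called ones by 1.32-fold (Pcna) to 3.02-fold (Cenpf). Limma called 23 of the 40 tested genes higher (57.5%), where 16.5% of all 12362 tested genes were called higher, and 1 lower (2.50%), where 19.6% of all genes were. A call is an adjusted p under 0.05, by Benjamini-Hochberg over all 24115 tested probe sets. The median difference over the 40 genes was 0.88 log2, against -0.02 over all tested genes. The difference was above 0 in 36 genes (90.0%, against 48.0% of all genes), and 14 were called higher by at least 2-fold (35.0%, against 5.12% of all genes). The largest rises were in Cenpf (1.60 ± 0.27 log2, standard error, 3 arrays against 2; 3.02-fold), Birc5 (1.57 ± 0.44; 2.97-fold) and Cdk1 (1.57 ± 0.40; 2.96-fold). In 32 of the 40 genes the 3 hTNF arrays all lay above both wild-type arrays, against 28.7% of all genes.

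The size of this difference depended on which wild-type array was used. Wild-type replicate 1 was the lowest of the 8 arrays in 33 of the 40 genes, a count not made over all genes. Wild-type replicate 1 minus replicate 2 had a median of -0.83 log2 over the 40 genes and 0.02 over all genes. Replicate 1 was lower than replicate 2 by at least 1 log2 in 17 of the 40, where 124 of all 12362 genes (1.00%) were. Over the 40 genes the mean hTNF level exceeded wild-type replicate 1 by a median of 1.22 log2 and wild-type replicate 2 by a median of 0.33. Without wild-type replicate 1, limma called 7 genes higher (17.5%, against 10.4% of all genes) and 1 lower (against 11.7%). Without wild-type replicate 2 it called 33 higher (82.5%, against 13.1%) and 0 lower (against 15.2%). Without hTNF replicate 3 it called 14 higher (35.0%, against 11.9%) and 1 lower (against 14.7%). Without the 3 arrays that held both Xist and Eif2s3y, which leaves wild-type replicate 1 as the lone control, limma called 33 genes higher in hTNF (82.5%, against 17.6%) and 1 lower (against 19.4%). Inside the transgenic groups, no pair of arrays had more than 1 of the 40 genes apart by 1 log2.

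**Figure D1:**
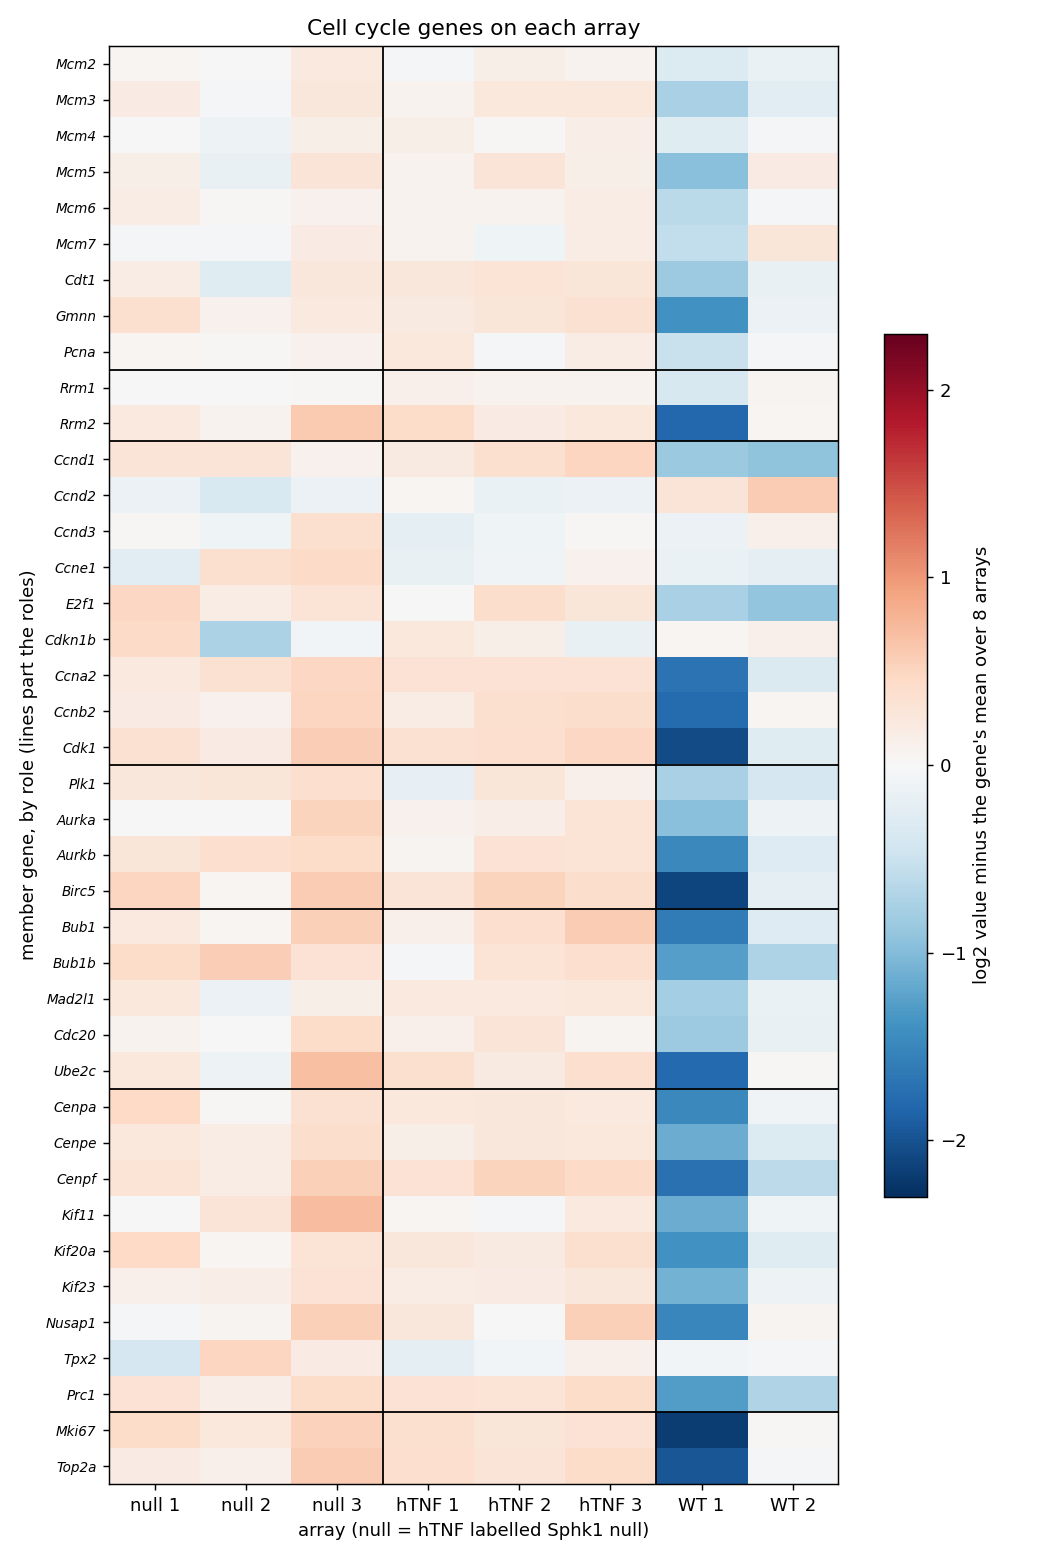
Each row is one of the 40 tested cell cycle genes and each column one array; colour gives the log2 value minus the gene's mean over the 8 arrays, and horizontal lines part the 7 roles. Wild-type replicate 1 is the bluest column, being lowest of the 8 arrays in 33 genes, while wild-type replicate 2 lies nearer to the 6 transgenic arrays.

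The filter on dim values also bears on these counts. It asks for a value above the table's median of 6.87 log2 on at least 2 arrays. Of the 40 tested genes, 24 exceeded it on all 8 arrays, 16 had wild-type replicate 1 at or below it, and 3 (Aurkb, Bub1 and Kif20a) had both wild-type arrays at or below it. Each of the 16 thus needed at least 1 transgenic array to pass, so their count is not support for a direction. Without any filter, 20 of 43 genes were called higher (46.5%, against 10.4% of all genes) and 1 lower (against 13.0%). With the 24 genes alone, 13 were called higher (54.2%, against 16.9%) and 1 lower (against 19.9%).

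Promoter sequences are shown because many members rose together, but members were searched whether or not they were called. RefSeq windows (build GRCm38.p6) from 250 bases before to 50 bases after a gene's start were at hand for 35 of the 43 measured members. They were searched on both strands for the cell cycle genes homology region (CHR, TTTGAA), the CCAAT box (CCAAT) and E2F sites (TTTGGCGC, TTTCCCGC, TTTGCCGC or TTTCGCGC). A CHR stood in 16 of the 35 (45.7%), against 20.2% of 27025 genes, a CCAAT box in 27 (77.1%, against 41.1%) and an E2F site in 7 (20.0%, against 2.60%). The 16 genes with a CHR also had a CCAAT box, a pairing found in 8.97% of all genes. Of 18 mitotic genes 13 held a CHR and 0 an E2F site, while of 11 S phase genes 1 (Mcm2) held a CHR and 6 an E2F site (Cdc6, Cdt1, Mcm3, Mcm5, Mcm6 and Mcm7). Cdk1 had both kinds. Such a match is a run of letters and no shown binding site. The windows are given 5′ to 3′ with these matches in capitals, for 5 genes of the mitotic phase and Mcm6, an S phase gene; Prc1 has a second start whose window overlaps the one shown, and the first E2F match of Mcm6 overlaps another on the opposite strand.
Cdk1 (chr10:69352863-69353162, minus strand): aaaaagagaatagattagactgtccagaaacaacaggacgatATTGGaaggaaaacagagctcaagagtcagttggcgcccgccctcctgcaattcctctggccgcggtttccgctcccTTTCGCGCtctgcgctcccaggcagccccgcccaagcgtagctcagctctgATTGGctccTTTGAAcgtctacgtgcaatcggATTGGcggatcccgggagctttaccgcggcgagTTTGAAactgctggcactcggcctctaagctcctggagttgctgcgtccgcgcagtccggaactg
Prc1 (chr7:80294201-80294500, plus strand): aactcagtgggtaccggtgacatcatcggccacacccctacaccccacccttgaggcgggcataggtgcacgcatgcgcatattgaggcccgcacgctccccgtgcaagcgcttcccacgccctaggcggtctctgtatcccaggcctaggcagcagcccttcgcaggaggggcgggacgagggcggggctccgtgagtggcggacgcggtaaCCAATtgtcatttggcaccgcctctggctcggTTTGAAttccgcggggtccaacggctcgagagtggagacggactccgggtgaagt
Cenpf (chr1:189688037-189688336, minus strand): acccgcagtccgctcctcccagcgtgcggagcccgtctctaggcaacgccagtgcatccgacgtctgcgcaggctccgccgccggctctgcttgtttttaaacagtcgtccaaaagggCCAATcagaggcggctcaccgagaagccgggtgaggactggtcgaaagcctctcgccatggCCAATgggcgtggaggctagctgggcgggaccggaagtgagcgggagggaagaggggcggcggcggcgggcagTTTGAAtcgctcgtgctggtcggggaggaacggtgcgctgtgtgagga
Bub1b (chr2:118597961-118598260, plus strand): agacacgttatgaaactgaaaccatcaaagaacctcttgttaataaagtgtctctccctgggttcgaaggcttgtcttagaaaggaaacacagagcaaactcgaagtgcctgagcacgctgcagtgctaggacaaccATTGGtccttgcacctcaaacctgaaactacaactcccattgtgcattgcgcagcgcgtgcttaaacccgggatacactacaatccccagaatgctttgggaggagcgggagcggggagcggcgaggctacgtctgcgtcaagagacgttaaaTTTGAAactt
Mki67 (chr7:135716330-135716629, minus strand): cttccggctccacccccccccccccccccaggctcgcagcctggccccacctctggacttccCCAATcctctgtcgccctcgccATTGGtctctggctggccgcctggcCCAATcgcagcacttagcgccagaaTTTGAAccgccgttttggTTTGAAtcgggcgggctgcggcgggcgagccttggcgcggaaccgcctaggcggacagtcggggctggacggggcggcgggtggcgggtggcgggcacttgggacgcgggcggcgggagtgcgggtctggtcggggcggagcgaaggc
Mcm6 (chr1:128359656-128359955, minus strand): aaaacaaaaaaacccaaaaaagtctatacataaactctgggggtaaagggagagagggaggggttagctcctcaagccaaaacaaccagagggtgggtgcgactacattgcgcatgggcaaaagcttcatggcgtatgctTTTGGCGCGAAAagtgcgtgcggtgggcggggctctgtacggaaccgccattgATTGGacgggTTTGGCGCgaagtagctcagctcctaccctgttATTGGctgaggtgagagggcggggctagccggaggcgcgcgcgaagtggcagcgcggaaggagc

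Cyclins and G1 control genes split, with 4 of 9 tested genes called higher (against 16.5% of all genes) and 1 lower (against 19.6%). Ccnd1, cyclin D1, which couples growth signals to cycle entry, read 11.47, 11.63 and 11.75 log2 in hTNF, against 10.40 and 10.33 in wild type. The groups did not overlap and the wild-type arrays lay close together. Ccnd1 rose by 1.25 ± 0.11 log2 (2.38-fold; limma adjusted p = 7.35e-05), and without wild-type replicate 1 by 1.29. E2f1, an activating E2F factor, read 7.98, 8.40 and 8.28 in hTNF, against 7.26 and 7.09 in wild type, and rose by 1.04 ± 0.16 (2.06-fold; limma adjusted p = 0.000997). It too hardly differed between the wild-type arrays, which parts it from most mitotic genes. The other tested E2f1 probe set differed by 0.595 ± 0.13 (limma adjusted p = 0.00806), so the size of the E2f1 difference depends on the probe set.

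The other D-type cyclins did not follow Ccnd1. Ccnd2, cyclin D2, was the one member called lower: 10.30, 10.09 and 10.11 log2 in hTNF, against 10.54 and 10.84 in wild type. It fell by 0.52 on the log2 scale (standard error 0.13; limma adjusted p = 0.0128), a call that ended without wild-type replicate 2 (adjusted p = 0.116) and with the mean of its probe sets (-0.26; adjusted p = 0.300). Its other tested probe sets differed by -0.50, -0.31, -0.23 and 0.26 without passing, so the 5 do not all agree in sign. Ccnd3, cyclin D3, differed by -0.07 ± 0.15 (limma adjusted p = 0.762), and its 3 hTNF arrays (10.05 to 10.29) overlapped wild type (10.12 and 10.37). Ccne1, cyclin E1, differed by 0.14 ± 0.20 (adjusted p = 0.657). Cdkn1b, which encodes the inhibitor p27, differed by -0.02 ± 0.28 (adjusted p = 0.973) and varied by 1.17 log2 among the 6 transgenic arrays.

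Ccna2, cyclin A2, which acts in S phase and early mitosis, read 9.47, 9.46 and 9.46 log2 in hTNF, against 7.44 and 8.80 in wild type. Cdk1, the mitotic kinase, read 8.99, 9.02 and 9.10 in hTNF, against 6.58 and 8.36 in wild type. Both genes had narrow hTNF groups above a wide wild-type pair. Ccna2 rose by 1.34 ± 0.31 (limma adjusted p = 0.00886) and Cdk1 by 1.57 ± 0.40 (adjusted p = 0.0144), and without wild-type replicate 1 the differences were 0.66 and 0.68, both still called. Ccnb2, cyclin B2, read 8.54, 8.73 and 8.78 in hTNF, against 6.60 and 8.42 in wild type, and its difference of 1.17 ± 0.41 did not pass (adjusted p = 0.0555).

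**Figure D2:**
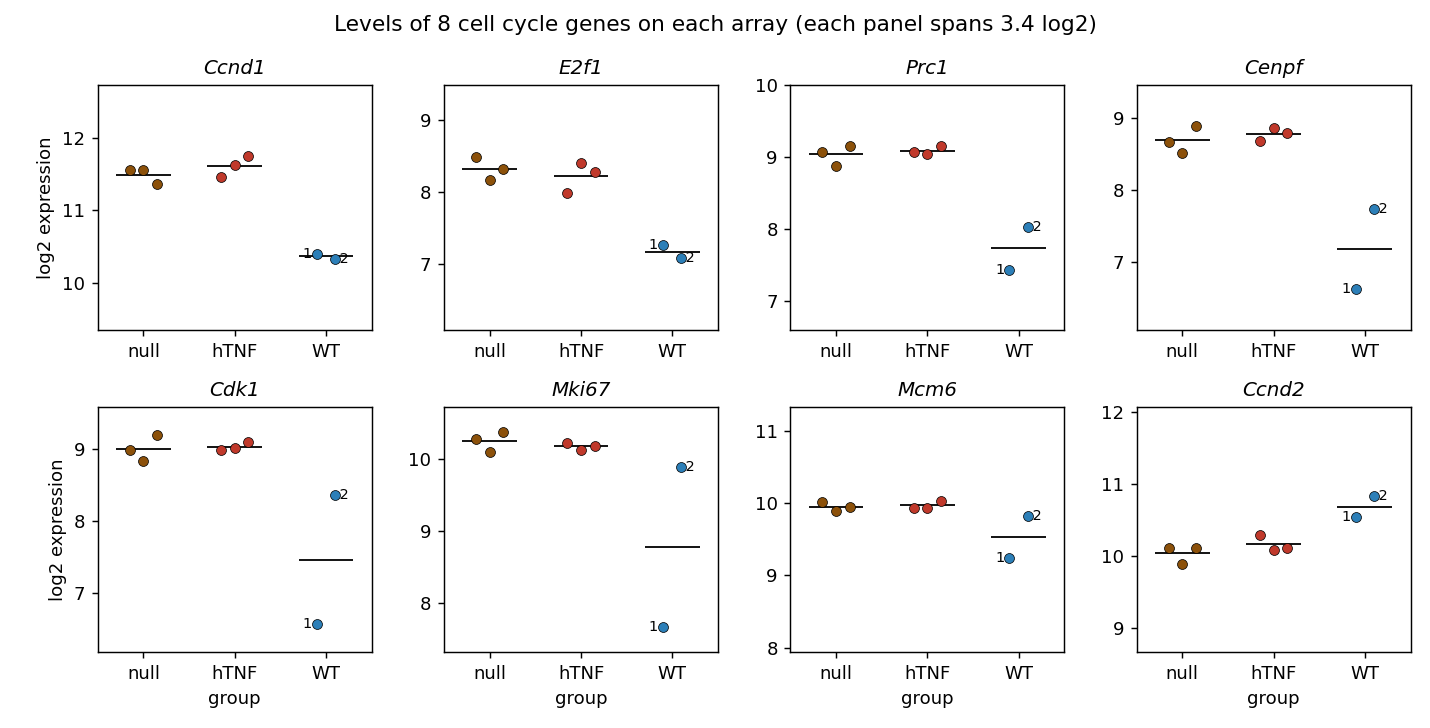
Log2 expression of 8 cell cycle genes in the arrays labelled null, hTNF and wild type; each point is 1 array, lines are group means, wild-type replicates are numbered and every panel spans the same log2 range. Ccnd1 and E2f1 have both wild-type arrays together below the transgenic arrays, whereas Mki67 and Cdk1 have wild-type replicate 2 near them and replicate 1 far below.

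Of 9 tested genes of origin licensing and the replication fork, 4 were called higher (against 16.5% of all genes), and the median difference was 0.43 log2. Gmnn, geminin, which blocks licensing once DNA is copied, read 8.10, 8.17 and 8.24 log2 in hTNF, against 6.49 and 7.76 in wild type, and rose by 1.04 ± 0.30 (limma adjusted p = 0.0232). Cdt1, the licensing factor that geminin binds, read 9.29, 9.34 and 9.30 in hTNF, against 8.19 and 8.85 in wild type, and rose by 0.79 ± 0.21 (adjusted p = 0.0172). All 3 hTNF arrays lay above both wild-type arrays for each gene. Mcm3, a subunit of the replicative helicase, read 8.78, 8.93 and 8.94 in hTNF, against 7.95 and 8.44 in wild type, and rose by 0.69 ± 0.16 (adjusted p = 0.00922). Pcna, the sliding clamp of the polymerases, rose by 0.40 ± 0.14 (adjusted p = 0.0471), a call that ended in 4 of 10 alternative settings and on leaving out 6 of the 8 arrays in turn.

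The other helicase subunits did not pass, with differences of 0.20 (Mcm7) to 0.55 log2 (Mcm5). Mcm5 and Mcm7 overlapped between the groups: wild-type replicate 2 had Mcm7 at 10.79, above all 3 hTNF arrays (10.42 to 10.69). None of the calls in this group held without wild-type replicate 1, where the adjusted p ran from 0.0974 (Mcm3) to 0.399 (Pcna) for the 4 genes. Cdc6, the loader of the helicase, stayed below the filter on every array, at 5.99 to 6.32 in hTNF and 5.11 and 6.04 in wild type.

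Of the genes that supply deoxynucleotides, Rrm2, the cell cycle-controlled subunit of ribonucleotide reductase, read 9.53, 9.29 and 9.35 log2 in hTNF, against 7.30 and 9.15 in wild type. The second wild-type array lay just under the hTNF arrays and the first about 2 log2 lower, a difference of 1.17 ± 0.42 that did not pass (limma adjusted p = 0.0625). Rrm1, the large subunit, read 9.70, 9.68 and 9.67 in hTNF, against 9.23 and 9.65 in wild type (0.24 ± 0.13; adjusted p = 0.184). Tyms, thymidylate synthase, stayed at 4.16 to 5.41 over all its probe sets and arrays, below the filter.

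Mitotic kinases and the chromosome passenger complex were called higher in 4 of 4 genes, where 16.5% of all genes were. In all 4, wild-type replicate 1 was at or below the filter's median, so each needed at least 1 transgenic array to pass. Aurkb could pass the filter only through its transgenic arrays. Birc5, survivin, a passenger complex subunit, read 8.58, 8.79 and 8.68 log2 in hTNF, against 6.16 and 8.07 in wild type (limma adjusted p = 0.0218). Aurkb, the kinase of that complex, read 7.04, 7.30 and 7.29 in hTNF, against 5.49 and 6.68 in wild type, and rose by 1.12 ± 0.29 (adjusted p = 0.0147). For both, wild-type replicate 2 lay between replicate 1 and the hTNF arrays. Aurka, a spindle pole kinase, read 7.13, 7.18 and 7.33 in hTNF, against 6.06 and 6.90 in wild type, and rose by 0.73 ± 0.25 (adjusted p = 0.0492). That call ended in 6 of 9 alternative settings, quantile normalization and no filter among them, and on leaving out 6 of the 8 arrays in turn. Plk1, polo-like kinase, rose by 0.64 ± 0.17 (adjusted p = 0.0164). Without wild-type replicate 1 the 4 genes differed by 0.31 (Aurka) to 0.61 (Birc5) and none was called.

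Spindle checkpoint and anaphase genes were called higher in 4 of 5, where 16.5% of all genes were. Of these, Bub1 could pass the filter only through its transgenic arrays. Bub1b, the checkpoint kinase-like protein BubR1, read 8.54, 8.89 and 8.97 log2 in hTNF, against 7.31 and 7.87 in wild type, and rose by 1.21 ± 0.19 (2.31-fold; limma adjusted p = 0.00123). It held at 0.93 without wild-type replicate 1 (adjusted p = 0.0138). Bub1, its partner kinase at the kinetochore, read 7.25, 7.52 and 7.71 in hTNF, against 5.51 and 6.83 in wild type, and rose by 1.32 ± 0.34 (adjusted p = 0.0143), which ended without that array (0.66; adjusted p = 0.0996). Ube2c, the ubiquitin-conjugating enzyme of the anaphase-promoting complex, read 8.46, 8.30 and 8.48 in hTNF, against 6.31 and 8.12 in wild type (1.20 ± 0.43; adjusted p = 0.0619). Thus Bub1b had both wild-type arrays well below hTNF, while Ube2c had wild-type replicate 2 within 0.18 of the lowest hTNF array. Mad2l1 (0.70 ± 0.18) and Cdc20 (0.66 ± 0.20), an inhibitor and an activator of that complex, rose too.

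Centromere, spindle and cytokinesis genes were called higher in 6 of 9, where 16.5% of all genes were. Of these, Kif20a could pass the filter only through its transgenic arrays. Cenpa, Cenpe, Cenpf and Kif23 had wild-type replicate 1 at or below the filter's median and needed at least 1 transgenic array to pass. Cenpf, a kinetochore protein, read 8.68, 8.86 and 8.79 log2 in hTNF, against 6.62 and 7.74 in wild type (limma adjusted p = 0.00195). Prc1, which bundles microtubules in the midzone, read 9.07, 9.04 and 9.15 in hTNF, against 7.44 and 8.03 in wild type, and rose by 1.35 ± 0.17 (2.55-fold; adjusted p = 0.000426). Both wild-type arrays were more than 0.9 below the lowest hTNF array in both genes. Without wild-type replicate 1, Cenpf differed by 1.04 and Prc1 by 1.06, and both stayed called. Kif20a, a cytokinesis kinesin, read 7.07, 7.0 and 7.17 in hTNF, against 5.41 and 6.53 in wild type, and rose by 1.11 ± 0.28 (adjusted p = 0.0148), a call that ended without that array (adjusted p = 0.0999).

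Cenpa, the centromeric histone (1.03 ± 0.33), Cenpe, a kinetochore motor (0.94 ± 0.21), and Kif23, a midzone motor (0.81 ± 0.24), rose as well. Kif11, which keeps the spindle bipolar (0.70 ± 0.29; limma adjusted p = 0.0993), and the spindle protein Nusap1 (1.00 ± 0.39; adjusted p = 0.0776) did not pass. For Tpx2, an activator of Aurka, the brighter of 2 tested probe sets differed by -0.02 ± 0.23 and the other by 0.90 ± 0.19 (adjusted p = 0.00520), so this gene has no settled difference. Ect2, which starts the cleavage furrow, was below the filter everywhere, at 6.61, 6.76 and 6.59 in hTNF, against 4.71 and 6.07 in wild type. In the fit without the filter it differed by 1.26 ± 0.31 (adjusted p = 0.0199).

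The usual proliferation markers showed the wild-type split most. Mki67, the Ki-67 antigen on mitotic chromosomes, read 10.21, 10.12 and 10.18 log2 in hTNF, against 7.66 and 9.88 in wild type. The 3 hTNF arrays lay within 0.09 of each other and the wild-type pair 2.22 apart, and the difference of 1.40 ± 0.48 did not pass (limma adjusted p = 0.0522). Top2a, the topoisomerase that untangles sister chromatids, read 9.55, 9.46 and 9.58 in hTNF, against 7.20 and 9.14 in wild type, and rose by 1.36 ± 0.44 (adjusted p = 0.0393), which ended in 3 of 10 alternative settings and on leaving out 7 of the 8 arrays in turn. Without wild-type replicate 1, Mki67 differed by 0.29 and Top2a by 0.39, and neither was called.

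In all, 7 genes stayed called higher in hTNF when any 1 of the 8 arrays was left out: Ccnd1, E2f1, Ccna2, Cdk1, Bub1b, Cenpf and Prc1. The mean hTNF level exceeded both wild-type arrays by at least 1 log2 in 3 genes, Ccnd1, Cenpf and Prc1, and E2f1 did so against wild-type replicate 2 alone. Neither the genes kept under every leave-out nor those above both wild-type arrays were counted over all genes. Among the 21 genes with several tested probe sets, these gave the same call in 16, and the 5 others were Ccnd2, Cdc20, Mcm3, Top2a and Tpx2. Of all 71 tested probe sets, 34 were called higher and 1 lower, where 7965 of all 24115 tested probe sets were called either way.

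**Figure D3:**
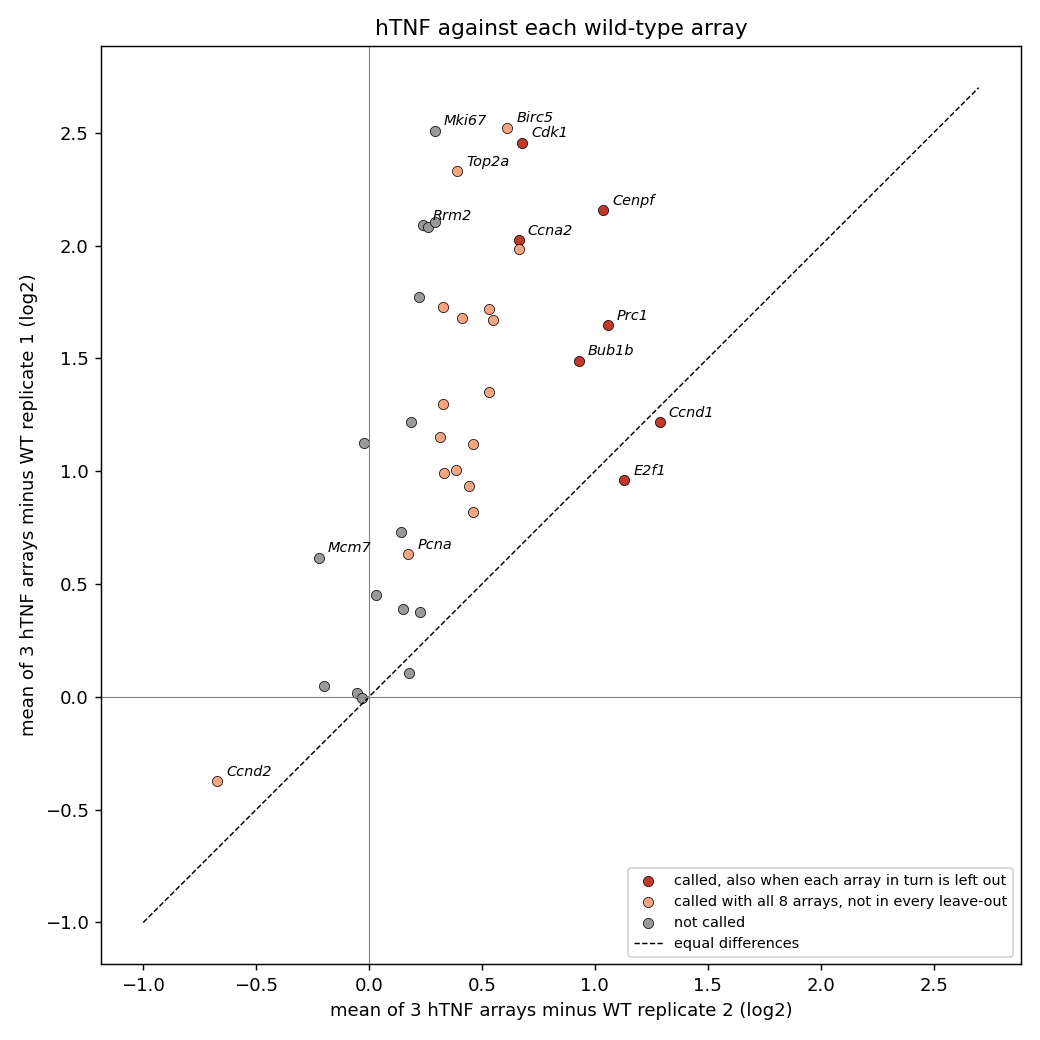
Each point is one of the 40 genes, plotted by the mean of the 3 hTNF arrays minus wild-type replicate 2 (x, log2) and minus wild-type replicate 1 (y, log2); colour gives the call and the dashed line equal differences. Most points stand far above the line, while Ccnd1 and E2f1 lie near it, with Bub1b, Prc1 and Cenpf toward the right.

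Lists of neutrophil, erythroid and B cell markers also averaged lower on wild-type replicate 1 than on replicate 2. So did the osteoclast, T and NK cell and plasma cell lists given below. The 13 measured neutrophil precursor and granule genes of 15 averaged 9.12 to 10.78 log2 on the arrays labelled null and 8.97 to 9.95 in hTNF, against 7.51 on wild-type replicate 1 and 10.69 on replicate 2. All 13 were lower on wild-type replicate 1 than on replicate 2 by at least 1 log2. The 11 measured erythroid genes of 15 averaged 7.08 to 8.73 on the arrays labelled null and 6.89 to 7.37 in hTNF, against 7.04 and 8.01 in wild type, and Hba-a1 and Rhag were at or below the table median on every array. The 13 measured B cell and B precursor genes of 14 averaged 7.89 to 8.26 on the arrays labelled null and 7.94 to 8.42 in hTNF, against 8.07 and 9.21 in wild type. Wild-type replicate 1 was lower by at least 1 log2 in 4 of 8 tested erythroid genes and 5 of 10 tested B cell genes. The erythroid genes Tfrc (12.03 against 11.79) and Epor (7.97 against 7.77) were higher on wild-type replicate 1 than on replicate 2. The part of marrow cells in the cell cycle differences was not tested.

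The 40 cell cycle genes averaged 8.71 to 8.99 log2 on the arrays labelled null and 8.79 to 8.90 in hTNF, against 7.59 and 8.48 in wild type. Macrophage and monocyte genes, 13 of 14 measured, averaged 11.35 to 11.62 on the arrays labelled null and 11.12 to 11.45 in hTNF, against 9.66 and 9.67 in wild type, so the wild-type arrays did not part there. T and NK cell genes averaged 8.07 to 8.20 on the arrays labelled null and 7.93 to 8.23 in hTNF, against 7.32 and 7.87 in wild type. Plasma cell genes averaged 8.92 to 8.96 on the arrays labelled null and 8.91 to 9.16 in hTNF, against 8.43 and 8.82 in wild type, with Tnfrsf17 at or below the median on every array. Osteoclast genes averaged 9.59 on each array labelled null and 9.41 to 9.77 in hTNF, against 7.95 and 8.84 in wild type, with Calcr at or below the median everywhere. The 17 measured skin genes of 18 spanned 6.33 to 8.94 on the arrays labelled null and 6.02 to 10.25 in hTNF, against 7.49 and 6.64 in wild type, with Krt16 and Ivl at or below the median everywhere. Endothelial genes averaged 9.38 to 9.54 on the arrays labelled null and 8.93 to 9.41 in hTNF, against 9.78 and 9.94 in wild type. The part of these cell types in the cell cycle differences was not tested either.

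**Figure D4:**
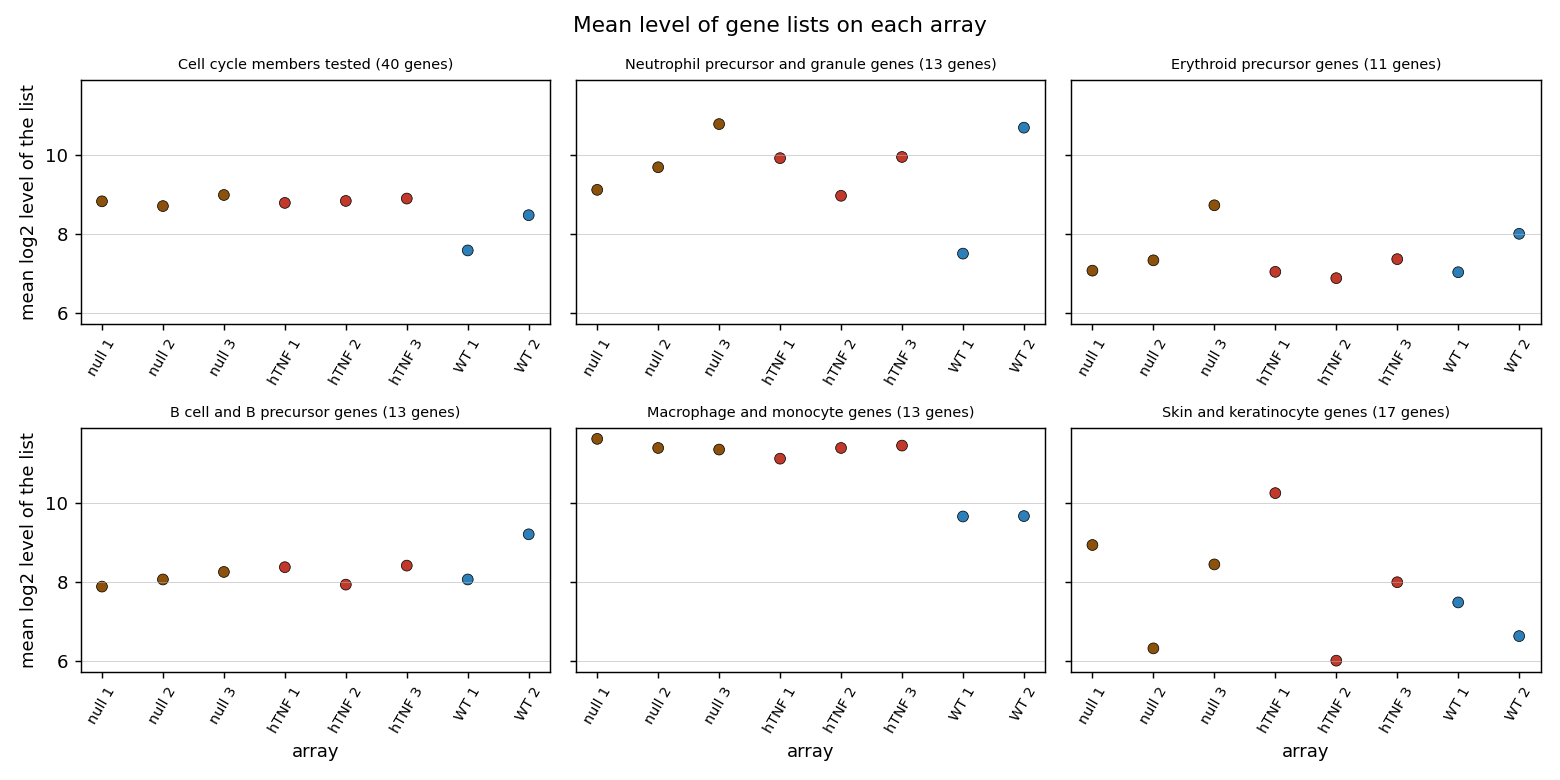
Mean log2 level of the 40 tested cell cycle genes and of 5 marker lists on each array; brown points are the arrays labelled null, red hTNF and blue wild type. The neutrophil list ranges over 7.51 to 10.78 and is lowest on wild-type replicate 1, the cell cycle mean is lowest there too, and the macrophage list puts both wild-type arrays together below 10.

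Other genes of the same pathways were counted from lists apart from the 44. Of 31 tested mitotic genes among 37 listed, 19 were called higher in hTNF (61.3%, against 16.5% of all genes) and 1 lower (3.23%, against 19.6%), with a median of 0.75 log2. The wild-type arrays parted here too: replicate 1 minus replicate 2 had a median of -0.72, and replicate 1 was lower by at least 1 log2 in 7 genes. Espl1, the protease separase, rose by 1.76 ± 0.21 (limma adjusted p = 0.000323), with 8.76, 9.27 and 9.23 in hTNF, against 7.06 and 7.59 in wild type. Anln, the cytokinetic scaffold anillin, rose by 1.52 ± 0.15 (adjusted p = 0.000139), with 8.99 to 9.02 in hTNF, against 7.27 and 7.70 in wild type. In both genes each wild-type array lay over 1 log2 below each hTNF array. Aspm, a spindle pole protein, read 8.23, 8.43 and 8.54 in hTNF, against 6.16 and 7.70 in wild type (1.47 ± 0.36; adjusted p = 0.0119). Cks2, a Cdk1-binding protein, read 9.62, 9.85 and 9.60 in hTNF, against 7.57 and 8.87 in wild type (1.47 ± 0.32; adjusted p = 0.00730). In these genes wild-type replicate 1 lay more than 1 log2 below replicate 2. Of 22 tested S phase genes among 26, 3 were called higher (13.6%, against 16.5%) and 1 lower (4.55%, against 19.6%), with a median of 0.20. Those higher were Tk1, thymidine kinase (1.03 ± 0.19), Dbf4, the activator of the Cdc7 kinase (0.95 ± 0.29), and the replication factor Gins2 (0.50 ± 0.13), and the lower one was Rpa2, a single-strand binding protein (-0.43 ± 0.14).

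Of 25 tested G1 control genes among 28, 6 were called higher (24.0%, against 16.5% of all genes) and 3 lower (12%, against 19.6%), with a median of 0.12 log2, so the list as a whole stood near the share of all genes. Cdk6, a kinase partner of the D-type cyclins, read 11.54, 11.35 and 11.57 in hTNF, against 9.49 and 9.93 in wild type, and rose by 1.78 ± 0.14 (limma adjusted p = 3.84e-05). The retinoblastoma relative Rbl1 rose by 0.91 ± 0.24, while the repressive E2F factor E2f6 (-1.24 ± 0.15) and the p53 target Ccng1 (-0.92 ± 0.15) fell. Inhibitors went both ways: Cdkn1a, which encodes p21, rose by 0.85 ± 0.10 and Cdkn2b, which encodes p15, by 0.70 ± 0.16, while Cdkn1c, which encodes p57, fell by 0.72 (standard error 0.18). These 3 inhibitors were chosen for naming after their values were seen.

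Between the transgenic groups no cell cycle gene passed the test. Limma called 0 of 40 genes higher and 0 lower on the arrays labelled null than in hTNF, where 0.0162% of all genes were called higher and 0.0% lower. By an unadjusted p under 0.05 the count was also 0, against 2.39% of all genes higher and 3.88% lower. The differences ran from -0.23 (Cdt1) to 0.26 log2 (Kif11), with a median of -0.02, and 39 of the 40 were smaller than 0.25 in size. For 39 genes the 95% interval lay within 1 log2 on either side of no change. Mki67 read 10.27, 10.09 and 10.37 on the arrays labelled null, against 10.21, 10.12 and 10.18 in hTNF, and its interval, from -0.90 to 1.05, was the exception. For Ccnd1 the arrays labelled null read 11.56, 11.56 and 11.36, against 11.47, 11.63 and 11.75 in hTNF, with an interval from -0.35 to 0.10, and for E2f1 they read 8.48, 8.17 and 8.32, against 7.98, 8.40 and 8.28 in hTNF, with an interval from -0.21 to 0.42. With 1 probe set for each gene, the groups overlapped in all genes except Rrm1 (9.60, 9.58 and 9.62 on the arrays labelled null, against 9.70, 9.68 and 9.67 in hTNF), where all null values were lower; this holds for 4.91% of all genes, and the opposite, found for 0 members, for 5.10%. Rrm1 differed by -0.08 ± 0.11 (adjusted p = 0.879).

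The other probe sets of Ccnd1 gave lower values on the arrays labelled null. One read 10.89 to 11.09 on the arrays labelled null, against 11.28 to 11.33 in hTNF, without overlap (-0.32 ± 0.08; limma unadjusted p = 0.00373, adjusted p = 0.554). The other read 9.28, 8.54 and 8.69 on the arrays labelled null, against 9.57, 9.33 and 9.23 in hTNF, with overlap (-0.54 ± 0.19; unadjusted p = 0.0166, adjusted p = 0.612). Of all 71 tested probe sets these 2 alone had an unadjusted p under 0.05, and 0 were called. Against wild type both were called higher in hTNF, by 1.51 ± 0.09 and 1.99 ± 0.21, so the size of the Ccnd1 difference depends on the probe set.

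The other genes given by array had transgenic groups that overlapped on the probe set that stands for the gene. Another tested Mcm3 probe set did not overlap, at 8.60, 8.65 and 8.72 on the arrays labelled null, against 8.49, 8.52 and 8.58 in hTNF. It differed by 0.13 ± 0.14 (limma adjusted p = 0.841). Gmnn read 8.26, 7.99 and 8.12 log2 on the arrays labelled null. Cdt1 read 9.19, 8.75 and 9.29 there, and Mcm3 read 8.88, 8.67 and 8.95. In these licensing genes replicate 2 of the arrays labelled null was the lowest of the 3. Rrm2 read 9.33, 9.19 and 9.71 on the arrays labelled null. Ccna2 read 9.36, 9.48 and 9.61 there, and Ccnb2 read 8.56, 8.46 and 8.87. In these genes replicate 3 of the arrays labelled null was the highest of the 3.

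Birc5 read 8.78, 8.32 and 8.86 log2 on the arrays labelled null. Aurkb read 7.25, 7.36 and 7.39 there, and Aurka read 7.03, 7.03 and 7.53. Replicate 3 was again highest, by the most in Aurka. Bub1 read 7.35, 7.17 and 7.67 on the arrays labelled null. Ube2c read 8.35, 7.99 and 8.79 there, and Cenpf read 8.66, 8.51 and 8.89. Each of these genes was lowest on replicate 2 and highest on replicate 3. Kif20a, which read 7.26, 6.85 and 7.12 on the arrays labelled null, was highest on replicate 1, and Top2a, at 9.34, 9.27 and 9.74, on replicate 3.

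Replicates 2 and 3 of the arrays labelled null stood at the ends of the transgenic range. Among the 6 transgenic arrays, replicate 3 of the arrays labelled null was highest in 24 of the 40 genes and replicate 2 lowest in 23. These counts were not made over all genes. Replicate 2 minus replicate 3 had a median of -0.275 log2 over the 40 genes and -0.07 over all genes. For replicate 1 minus replicate 2 the medians were 0.125 and 0.21, so replicate 2 also read lower over all genes. On replicate 3 the neutrophil list averaged 10.78 and the erythroid list 8.73, the highest values of the 6 arrays. On replicate 2 the skin list averaged 6.33, against 8.94 on replicate 1. The skin list was lower still, at 6.02, on hTNF replicate 2, which was the lowest array in 3 of the 40 genes. The part of those cells in the cell cycle values was not tested.

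**Figure D5:**
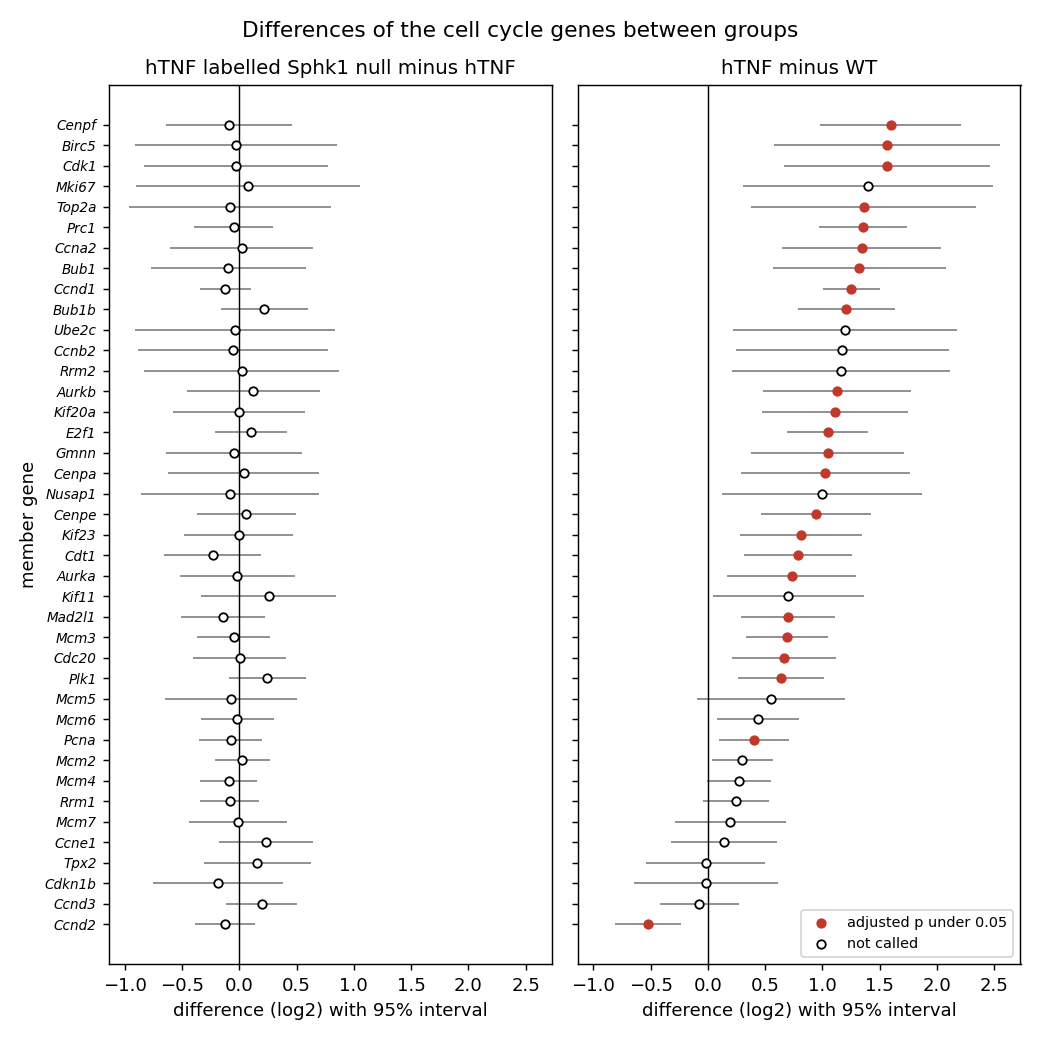
Differences in log2 with 95% intervals from limma for the 40 tested genes, sorted by hTNF minus wild type; left, the arrays labelled null minus hTNF, right, hTNF minus wild type, with filled points for an adjusted p under 0.05. On the left the points lie between -0.23 and 0.26; on the right 23 filled points lie above 0 and 1, Ccnd2, below.

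The arrays labelled null were also set against wild type, a comparison that shares its wild-type arrays with the first. Limma called 23 genes higher (57.5%, against 19.1% of all genes) and Ccnd2 lower (2.50%, against 23.8%), with a median of 0.94 log2. Cdk1 read 8.99, 8.83 and 9.19 log2 on the arrays labelled null, against 6.58 and 8.36 in wild type, and rose by 1.53 ± 0.40 (limma adjusted p = 0.0134). Prc1 read 9.07, 8.88 and 9.16 on the arrays labelled null, against 7.44 and 8.03 in wild type (1.30 ± 0.17; adjusted p = 0.000340). Bub1b read 9.0, 9.14 and 8.91 on the arrays labelled null, against 7.31 and 7.87 in wild type (1.43 ± 0.19; adjusted p = 0.000348). In these genes too, every transgenic array lay above both wild-type arrays. Mki67 (1.47 ± 0.48; adjusted p = 0.0375) and Kif11 (0.96 ± 0.29; adjusted p = 0.0279) passed here, while Cdt1 (0.56 ± 0.21; adjusted p = 0.0615) and Pcna (0.33 ± 0.14; adjusted p = 0.0870) did not. Ccnd2 read 10.12, 9.90 and 10.11 on the arrays labelled null, against 10.54 and 10.84 in wild type, and fell by 0.65 on the log2 scale (adjusted p = 0.00358). Its other tested probe sets differed by -0.895, -0.505, -0.43 and -0.25 here (limma adjusted p = 0.0168, 0.0483, 0.0314 and 0.546).

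This comparison kept 11 calls when any 1 array was left out: Ccnd1, Ccnd2, E2f1, Ccna2, Cdk1, Plk1, Aurkb, Bub1b, Cenpe, Cenpf and Prc1. Without wild-type replicate 1 limma called 10 genes higher (against 13.5% of all genes) and 1 lower (against 16.1%). With replicate 3 of the null arrays left out, it called 12 higher (against 15.9%) and 1 lower (against 19.4%). The calls kept under every leave-out were not counted over all genes. Leaving out the 3 arrays with Xist and Eif2s3y together gave 34 higher (85.0%, against 17.8%) and 1 lower (against 26.0%).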

How the data were processed

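The authors' deposited table holds log2 values of 45101 Affymetrix probe sets, with 2 decimals. The submitters' processing notes list RMA, MAS5 and Affymetrix Expression Console, without saying which made these values. Array medians were 6.84 to 6.89, so differences in total RNA do not show. Gene names came from the platform's annotation and were updated through a GRCm38.p6 gene table by identifier (34741 of 34945 probe sets with 1 gene matched); no build is given for the array values.

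Control probe sets were dropped and a probe set was tested where it exceeded 6.87 log2, the table's median, on at least 2 of 8 arrays, which left 24115. Limma 3.58.1 (R 4.3.3) fitted 1 mean per group to all 8 arrays, with moderated variances and an intensity trend and 5 residual degrees of freedom. The fit was tested on simulated data. The probe set with the highest mean stood for its gene. In 4 genes that was a type marked x_at, some of whose probes match other transcripts. Members, marker and pathway lists were chosen with earlier results of these data known. Members given by array are the 3 with the largest hTNF difference of each role and those called lower; E2f1, Ccnb2 and others were added after their values were seen. Pathway genes named are those with the largest called differences of a list, up to 4. The number of arrays limits the precision: the median standard error was 0.23 log2 against wild type and 0.21 between the transgenic groups. Alternatives covered normalization, filter, offset, variance model, probe set choice, replicate block, groups in the fit and single arrays.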

Additional observations from a re-analysis of the deposited data

How the results depend on the processing

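The count of called cell cycle genes in hTNF against wild type was 24 of 40, and 24 in the arrays labelled null against wild type. Asking for a value above the table median on all 8 arrays, which left 24 of the genes, gave 14 and 12. Leaving out 1 array at a time gave 8 to 33 calls in the first comparison and 11 to 33 in the second, the lowest without wild-type replicate 1 and the highest without wild-type replicate 2. In the first, leaving out hTNF replicate 3 gave 15, and in the second, leaving out replicate 3 of the arrays labelled null gave 13. Quantile normalization, no filter, an offset of 32 before log2, the 2 other variance models, the mean of a gene's probe sets and a fit of only the 2 groups gave 17 to 24 calls in the first and 18 to 27 in the second. Leaving out the 3 arrays that held Xist and Eif2s3y together, which leaves wild-type replicate 1 as the lone control, was chosen after seeing the data and gave 34 and 35 calls. Between the transgenic groups limma's count was 0 under every alternative run. By an unadjusted p under 0.05 it was 0 too, except for 2 genes higher and 1 lower without replicate 1 of the null arrays, 1 lower with the mean of a gene's probe sets, and 1 higher without the arrays that held Xist and Eif2s3y together. Which 17 genes were lower by at least 1 log2 on wild-type replicate 1 than on replicate 2 was counted again with quantile normalization (17), with no filter (18 of 43) and with the mean of a gene's probe sets (17). No called gene changed direction under any alternative run.

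Same-numbered arrays of the transgenic groups correlated at 0.228, 0.054 and 0.251 in their deviations from the group means, and the labels do not say that a number marks a litter or batch, so the numbers were not taken as pairs. With the replicate block the counts of called cell cycle genes were 20, 0 and 21 for the 3 comparisons. Calls over all 12362 genes moved with the setting too. In hTNF against wild type the main fit called 2044 of them higher and 2420 lower. Quantile normalization called 2286 and 2817, and the replicate block 1634 and 2009. A change in the cell cycle count between settings therefore need not be particular to these genes. With 2 wild-type arrays, no value here can tell which of them is nearer to the wild-type mean.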
